A study of Rattus norvegicus with 10 samples.

Results

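The NMDA receptor is the glutamate-gated channel that lets calcium into neurons when glutamate binds while the membrane is already depolarized. Each receptor joins obligatory GluN1 subunits, made from Grin1, with GluN2 subunits, made from Grin2a, Grin2b, Grin2c or Grin2d, or with GluN3 subunits such as the one made from Grin3a. The GluN2 subunit sets how long the channel stays open and how strongly magnesium blocks it, and a GluN1 subunit also needs glycine or D-serine as co-agonist. The transcripts of these 6 subunit genes were examined here in rat hippocampus after traumatic brain injury (TBI). They were taken by gene symbol from a table of 32041 RNA records, in which they held 13 rows, with 1 main row per gene, the row with the highest mean count. All 6 main rows passed the filter on low counts that left 22431 rows for testing.

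The rats were adult male Sprague-Dawley rats, 5 with TBI and 5 sham-operated, and the tissue was collected 3 months after surgery. TBI was made by lateral fluid percussion, a pressure pulse on the exposed dura over the left parietal cortex, at 3.32 atm, and the sham rats had the same anaesthesia and craniectomy without the pulse. A piece of the left hippocampus with CA3 and dentate gyrus, from the region that the labels call dorsal hippocampus, gave poly-A RNA that was sequenced as single reads of 36 bases, with 1 library per rat. The methods of the study state that the injured rats were not monitored by EEG, so the TBI group is a group of injured rats and not of rats with recorded epilepsy.

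The libraries held 23425817 to 31671838 counts. Markers of neurons and of CA3 were present at similar summed levels in both groups, and no marker on any list was at 0 in all rats. The summed level of dentate granule cell markers was uneven, at 61.4 CPM (counts scaled to library size) in sham 1 and 184 to 214 CPM in the other sham rats. In TBI rats it ran from 85.0 to 202 CPM. The 5 tested markers of that list had a median log2 change of -0.27, TBI over sham, with 0 of them above 0. The libraries of 2 sham rats stood apart, since ribosomal RNA took 59.0% of counts in sham 4 and 58.5% in sham 5, against 12.5% to 26.2% in the other 8. Sham 3 and TBI 3 stood apart in another way. The summed level of reactive astrocyte markers, which include Gfap and Vim, was 1698 CPM in sham 3 and 1022 CPM in TBI 3. The other sham rats lay between 809 and 956 CPM and the other TBI rats between 1779 and 2475 CPM. Gfap made up most of this sum, with a mean of 1016 of 1062 CPM in sham and 1801 of 1900 CPM in TBI. Values without these libraries are given beside the results that they moved most.

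To ask whether the receptor's subunit transcripts differed after injury, the main rows were compared between TBI and sham in one fit across all rows. Grin2c, which encodes GluN2C, was the subunit whose transcript level was higher in TBI, with a level 1.34 times that of sham (95% confidence interval 1.14 to 1.59). Grin1, the subunit that every receptor needs, was within a few percent of its sham level, and the point estimates of Grin2a, Grin2b, Grin2d and Grin3a lay below 0 with intervals that held 0. None of the 6 genes passed an adjusted p of 0.05 in the quasi-likelihood test of edgeR, and neither did any other row, so 0% of the 22431 rows were called. At an unadjusted p under 0.05, 1 of the 6 genes was called, Grin2c, against 7.89% of all rows in either direction, 4.89% higher in TBI and 3% lower. No gene of the 6 had groups that did not overlap in CPM, a pattern found for 0.499% of all rows with TBI higher and 0.424% with TBI lower. Levels below are TMM-scaled CPM and changes are log2 of TBI over sham with the standard error (SE). CPM is not scaled by transcript length, so levels are compared between rats and not between genes.

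**Figure D1:**
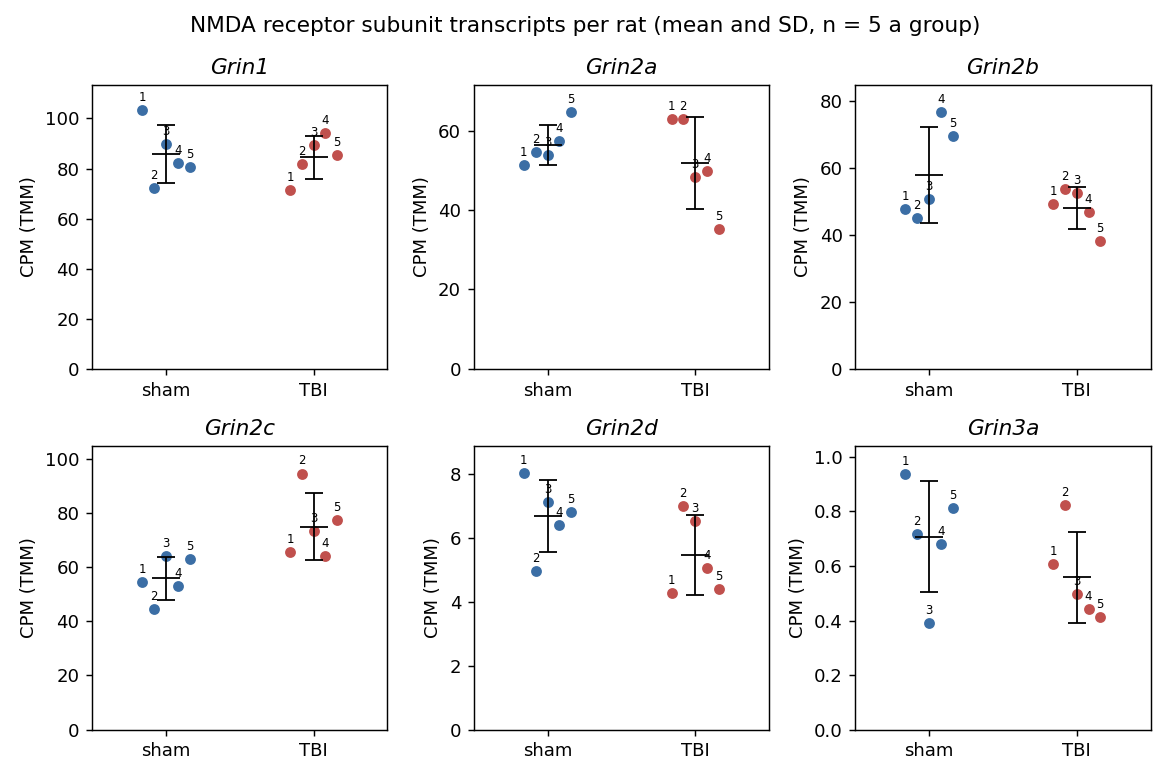
Level of each subunit transcript in each rat, in TMM-scaled CPM on a linear axis, with sham and TBI side by side, numbered points for the rats, and bars for the mean and SD (n = 5 a group). Grin2c is the gene for which 4 of 5 TBI rats lie above the highest sham rat, and sham 4 and sham 5 are the highest points for Grin2b.

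GluN1 transcripts did not differ beyond the spread between rats. Grin1 stood at 103, 72.4, 89.9, 82.4 and 80.7 CPM in sham rats 1 to 5. In TBI rats 1 to 5 it stood at 71.5, 81.6, 89.5, 94.3 and 85.3 CPM. The groups covered nearly the same range, with the highest value in a sham rat and the lowest in a TBI rat. The means were 85.8 ± 11.7 CPM in sham and 84.4 ± 8.65 CPM in TBI (SD, n = 5 each), a log2 change of -0.024 with an SE of 0.0960 (adjusted p = 0.974, edgeR). The 95% interval of the change ran from -0.22 to 0.18 on the log2 scale.

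Grin1 had 7 rows, which are isoforms of 1 gene, so rows could share reads and their values are uncertain as measures of single isoforms. Their log2 changes lay between -0.030 and 0.027, and the smallest adjusted p was 0.959 in edgeR. Each row held 12.4% to 15.9% of the summed Grin1 counts of a rat. The rows were split by their mean CPM over these same rats into an upper 4 (70.1 to 103 CPM) and a lower 3 (63.3 to 88.4 CPM). In 10 of 10 rats, sham and TBI, the upper 4 lay above the lower 3. Since the split was made on these values, the order is a description and not a check on isoform use. Over pairs of the 7 rows, the mean correlation of log2 CPM over the 10 rats was 0.925.

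GluN2A, encoded by Grin2a, is the GluN2 subunit that predominates at mature forebrain synapses. Grin2a read 51.3, 54.6, 53.9, 57.4 and 64.7 CPM in sham rats 1 to 5. It read 63.0, 63.0, 48.3, 49.7 and 35.3 CPM in TBI rats 1 to 5. TBI 3, 4 and 5 lay below the lowest sham rat, while TBI 1 and 2 lay near the top of the sham range. The spread was wider in TBI, with 51.9 ± 11.6 CPM against 56.4 ± 5.15 CPM in sham (SD, n = 5 each). The log2 change was -0.12 with an SE of 0.131 and a 95% interval of -0.40 to 0.16 (adjusted p = 0.872, edgeR). It was -0.20 without TBI 1 or without TBI 2, -0.068 without sham 5, -0.0073 without TBI 5 and -0.034 without sham 4 and 5, so its size rested on single rats.

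Grin2b encodes GluN2B, which forms slowly closing receptors and is abundant early in life and retained in the adult hippocampus. Its levels in sham rats 1 to 5 were 47.6, 44.9, 50.7, 76.5 and 69.5 CPM. Those in TBI rats 1 to 5 were 49.0, 53.7, 52.5, 46.7 and 38.1 CPM. Sham 4 and sham 5, the libraries rich in ribosomal RNA, were higher than all of the other 8 rats, which lay between 38.1 and 53.7 CPM. Over all rats the means were 57.8 ± 14.2 CPM in sham and 48.0 ± 6.18 CPM in TBI (SD, n = 5 each), and the log2 change was -0.26 with an SE of 0.146 and a 95% interval of -0.58 to 0.052 (adjusted p = 0.704, edgeR). Without these 2 sham rats the log2 change of Grin2b was 0.013 (adjusted p = 0.993, edgeR), so the lower level in TBI rested on those libraries together. It was -0.15 without sham 4 alone and -0.19 without sham 5 alone. With the ribosomal RNA share as a covariate it was 0.11 (adjusted p = 0.974, edgeR). That share was 12.5% to 25.5% in TBI rats and 23.8% to 59.0% in sham rats, so this fit cannot fully separate the share from the group. Leaving out sham 1 or sham 2, whose Grin2b levels were low, gave log2 changes of -0.33 and -0.34, both with an unadjusted p under 0.05.

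Grin2c encodes GluN2C, whose receptors are only weakly blocked by magnesium. In rodent brain it is known from cerebellar granule cells, thalamus, astrocytes and some interneurons, and it is sparse in hippocampal pyramidal cells. The transcript stood at 54.6, 44.4, 64.1, 53.2 and 62.8 CPM in sham rats 1 to 5. It stood at 65.4, 94.5, 73.2, 63.9 and 77.5 CPM in TBI rats 1 to 5. In all, 4 of 5 TBI rats lay above the highest sham rat, sham 3, and the remaining rat, TBI 4, lay just under it. All 5 TBI rats were above the sham mean. The means were 55.8 ± 8.01 CPM in sham and 74.9 ± 12.3 CPM in TBI (SD, n = 5 each), a log2 change of 0.43 with an SE of 0.114 and a 95% interval of 0.19 to 0.67. Grin2c ranked 72 of 22431 rows by p, with an unadjusted p of 0.0016 and an adjusted p of 0.478 in edgeR. The difference thus did not pass the threshold over all rows. The study itself lists Grin2c among the genes upregulated in TBI, from its own edgeR analysis, for which its methods give 3 controls. All 5 sham rats and a quasi-likelihood test were used here, so the analyses differ in test and may differ in rats. The results of the study count more control samples over its models than its methods allow, so which rats it used was not settled. In tissue of mixed cells, more cells of a type that express a transcript cannot be told apart from more of that transcript per cell.

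The Grin2c difference was compared across 26 alternative settings of the fit. It kept its direction and an unadjusted p under 0.05 in 26 of 26, with log2 changes of 0.33 to 0.96 and a lowest adjusted p of 0.0836. The highest log2 value came from scaling by total counts, a setting that moved the median of all rows from -0.0080 to 0.50. The lowest, 0.33, came without TBI 2, the rat with the highest Grin2c level. Without the 2 libraries rich in ribosomal RNA the log2 change of Grin2c was 0.47 (adjusted p = 0.878, edgeR), and without sham 3 and TBI 3 it was 0.49 (adjusted p = 0.0836, edgeR). Sham 3 and TBI 3 were picked because their marker levels lay near the other group. Leaving them out can by itself widen differences between the groups, so that adjusted p is not a check on the Grin2c difference.

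**Figure D2:**
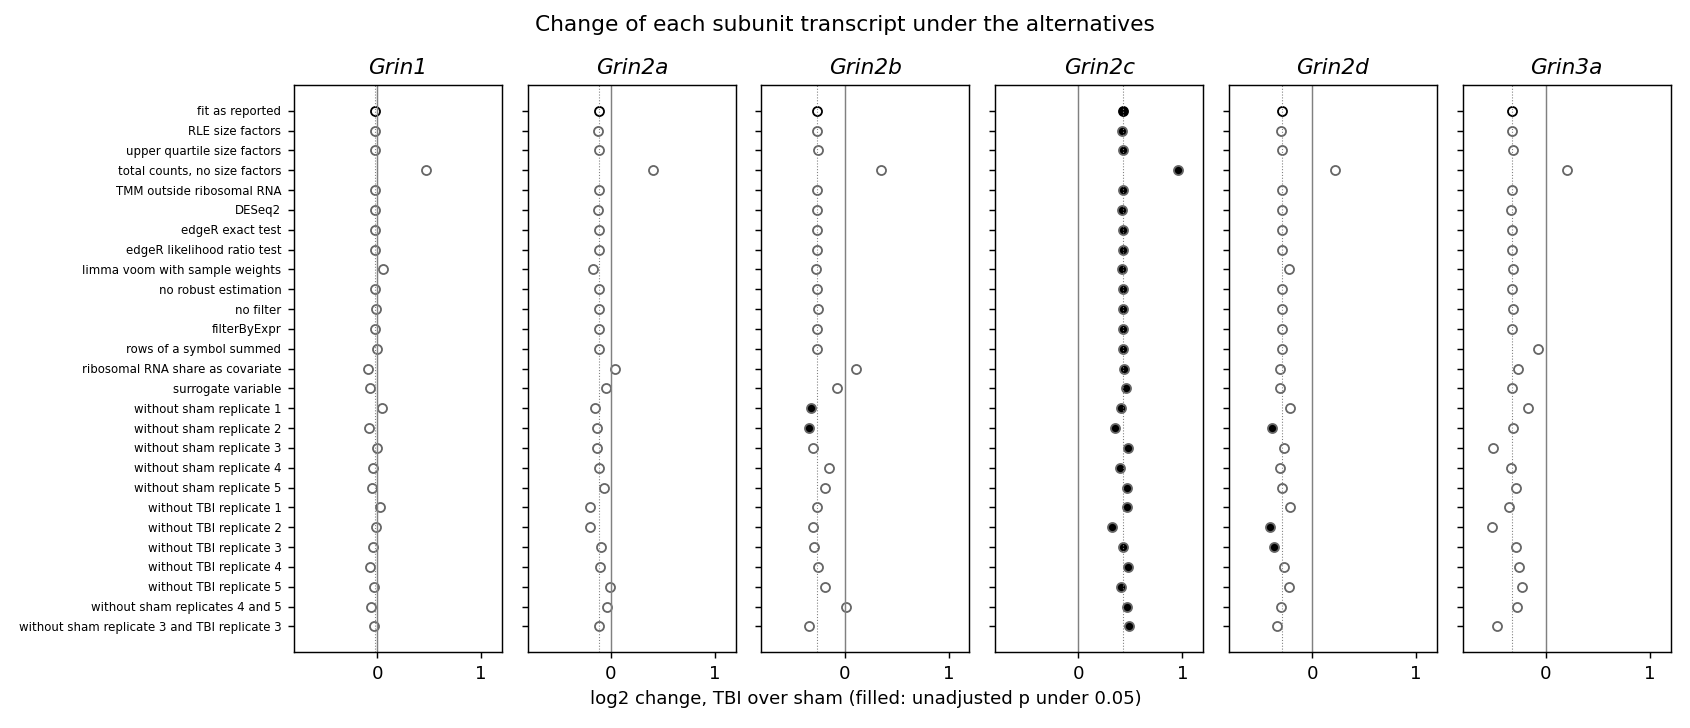
Log2 change of each subunit transcript, TBI over sham, in the reported fit and in the 26 alternative settings, 1 point per setting, filled where the unadjusted p was under 0.05. The points of Grin2c, from 0.33 to 0.96, are all filled and above 0, and those of Grin2d and Grin3a lie above 0 with total counts alone.

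Beside Grin2c, markers with an unadjusted p under 0.05 were found on the lists of astrocytes, reactive astrocytes, microglia, CA1, thalamus, choroid plexus and interneurons, and 0 were found on those of neurons, CA3, dentate granule cells and oligodendrocytes. Counts on these lists stand against the 4.89% of all rows that were higher in TBI at this threshold and the 3% that were lower. Of 8 astrocyte markers tested, 2 had an unadjusted p under 0.05, both higher in TBI, namely Aldh1l1 (log2 0.23, adjusted p = 0.555), an enzyme of folate metabolism, and S100b (log2 0.19, adjusted p = 0.633), a calcium-binding protein. The summed level of the astrocyte list ran from 1453 to 1692 CPM in sham and from 1555 to 1933 CPM in TBI. Of 5 reactive astrocyte markers, 4 were higher and 1, Serpina3n, was lower at that threshold. Gfap had a log2 change of 0.82 (adjusted p = 0.514) and Serpina3n one of -3.28 (adjusted p = 0.511). Serpina3n had 3 to 60 counts per library, with mean levels of 1.69 CPM in sham and 0.156 CPM in TBI. Of 7 microglial markers, 3 were higher, namely Aif1, C1qa and C1qb, with log2 changes of 0.34, 0.31 and 0.32, and the summed level was 167 to 261 CPM in sham and 200 to 282 CPM in TBI. None of these markers passed an adjusted p of 0.05 in edgeR, and their part in the Grin2c difference was not tested.

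Of 5 CA1 markers, 3 were higher in TBI at an unadjusted p under 0.05, among them Wfs1 (log2 1.53, adjusted p = 0.603), and the summed CA1 level ran from 54.1 to 112 CPM in sham and from 45.6 to 385 CPM in TBI. In TBI rats 1 to 5 the CA1 sum was 226, 385, 108, 45.6 and 153 CPM. Of 4 thalamic markers with a row, 1, Prkcd, was higher (log2 0.36, adjusted p = 0.599), and their summed level was 9.31 to 14.1 CPM in sham and 10.4 to 16.1 CPM in TBI. The thalamic markers Tcf7l2 and Rora had no row with a name, so they could not be read. Of 5 choroid plexus markers, 1, Folr1, was higher (log2 0.81, adjusted p = 0.579), with a summed level of 6.40 to 35.7 CPM in sham and 11.7 to 35.9 CPM in TBI. Interneuron markers were lower, with 3 of 8 below an unadjusted p of 0.05, namely Gad1 (log2 -0.46), Gad2 (log2 -0.46) and Lhx6 (log2 -0.36), and a summed level of 191 to 266 CPM in sham and 139 to 225 CPM in TBI. The part of CA1, thalamic, choroid plexus or interneuron tissue in the Grin2c difference was not tested.

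**Figure D3:**
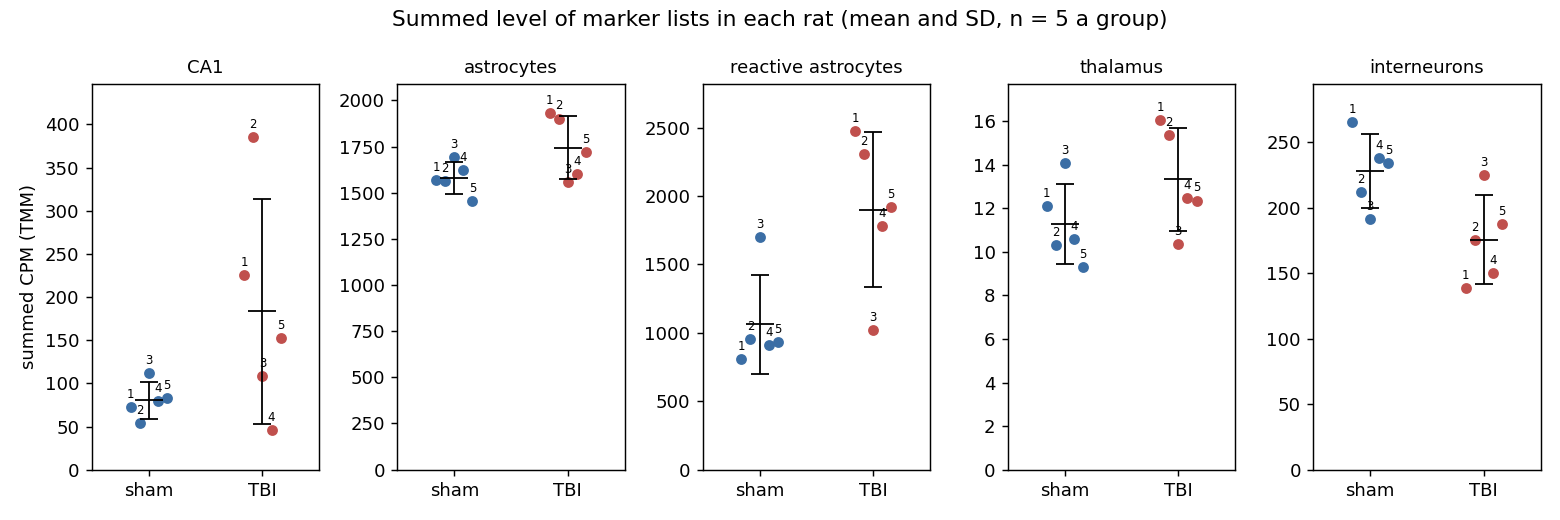
Summed level of 5 marker lists in each rat, in TMM-scaled CPM on a linear axis from 0, with numbered points for the rats and bars for the mean and SD (n = 5 a group). The CA1 sum spread from 45.6 to 385 CPM among TBI rats, sham 3 was the highest sham rat and TBI 3 the lowest TBI rat for reactive astrocyte markers, and interneuron sums were 139 to 225 CPM in TBI against 191 to 266 CPM in sham.

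Grin2d, which encodes GluN2D, forms receptors with very slow closing and is known in the adult hippocampus mainly from interneurons. It stood at 8.02, 4.96, 7.12, 6.39 and 6.81 CPM in sham rats 1 to 5. In TBI rats 1 to 5 the levels were 4.26, 7.00, 6.51, 5.06 and 4.40 CPM. TBI 1 and TBI 5 lay below the lowest sham rat, and the other TBI rats lay within the sham range. The means were 6.66 ± 1.12 CPM in sham and 5.45 ± 1.24 CPM in TBI (SD, n = 5 each), from 94 to 263 counts per library. The log2 change was -0.29 with an SE of 0.154 and a 95% interval of -0.62 to 0.032 (adjusted p = 0.679, edgeR). The unadjusted p was under 0.05 when any 1 of 3 rats was left out, namely sham 2, TBI 2 or TBI 3, and the lowest adjusted p of Grin2d over the 26 alternatives was 0.496. The 3 interneuron markers named above were lower beside it, and their part in the Grin2d values was not tested.

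Grin3a encodes GluN3A, a glycine-binding subunit that lowers calcium entry and is most abundant in the young brain. It was the subunit with the fewest reads, 10 to 31 counts per library, for which the exact Poisson 95% intervals were 4.80 to 18.4 and 21.1 to 44.0 counts, covering counting error only. The levels in sham rats 1 to 5 were 0.936, 0.719, 0.390, 0.680 and 0.812 CPM. Those in TBI rats 1 to 5 were 0.609, 0.825, 0.499, 0.443 and 0.414 CPM. The lowest of the 10 was a sham rat, sham 3, and TBI 2 lay above 4 of the 5 sham rats. The log2 change was -0.33 with an SE of 0.277 and a 95% interval of -0.91 to 0.25 (adjusted p = 0.818, edgeR). It was -0.51 without sham 3, -0.52 without TBI 2, -0.17 without sham 1 and -0.47 without both sham 3 and TBI 3. The other Grin3a row had 6 to 27 counts and a log2 change of 0.20 (SE 0.250, adjusted p = 0.889, edgeR). With both rows summed, Grin3a had 17 to 58 counts and a log2 change of -0.074 (adjusted p = 0.960, edgeR).

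To ask whether the make-up of the receptor transcripts differed, the ratio of each GluN2 or GluN3 transcript to Grin1, and of Grin2a to Grin2b, was taken within each rat. A ratio within a library does not depend on how libraries are scaled, and it shows unequal change, not which of the genes moved. The log2 ratio of Grin2c to Grin1 was -0.92, -0.71, -0.49, -0.63 and -0.36 in sham rats 1 to 5. It was -0.13, 0.21, -0.29, -0.56 and -0.14 in TBI rats 1 to 5. TBI 4 was the rat that fell within the sham range, and the other 4 TBI rats lay above the highest sham rat. The mean log2 ratio was -0.62 ± 0.213 in sham and -0.18 ± 0.281 in TBI (SD, n = 5 each), a difference of 0.44 with a two-sided exact permutation p of 0.0317. Adjusted over the 6 ratios compared, p was 0.190 in the permutation test, and the smallest raw p that this design can give is 0.00794. Grin1 entered as its main row, 1 of 7, so a log2 ratio near 0 does not mean equal reads for the genes. With all rows of a gene summed, the difference was 0.42 (exact permutation p = 0.0238, and 0.143 adjusted over the 6 ratios).

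No other ratio had a permutation p under 0.05. The log2 ratio of Grin2a to Grin2b, the pair whose balance shifts toward GluN2A during normal maturation, differed by 0.10 between the groups (exact permutation p = 0.563). For Grin2d to Grin1 the difference was -0.28 (exact permutation p = 0.111), and 3 TBI rats lay below the lowest sham rat. Grin2b to Grin1 differed by -0.23, Grin2a to Grin1 by -0.13 and Grin3a to Grin1 by -0.31, with exact permutation p values of 0.341, 0.587 and 0.429. Without sham 4 and 5 the difference was 0.060 for Grin2b to Grin1, -0.0095 for Grin2a to Grin1, -0.069 for Grin2a to Grin2b and -0.19 for Grin3a to Grin1. Without sham 3 the difference for Grin3a to Grin1 was -0.53. In each of the ratios of Grin2b, Grin2a and Grin3a to Grin1 the ranges of the groups overlapped widely.

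**Figure D4:**
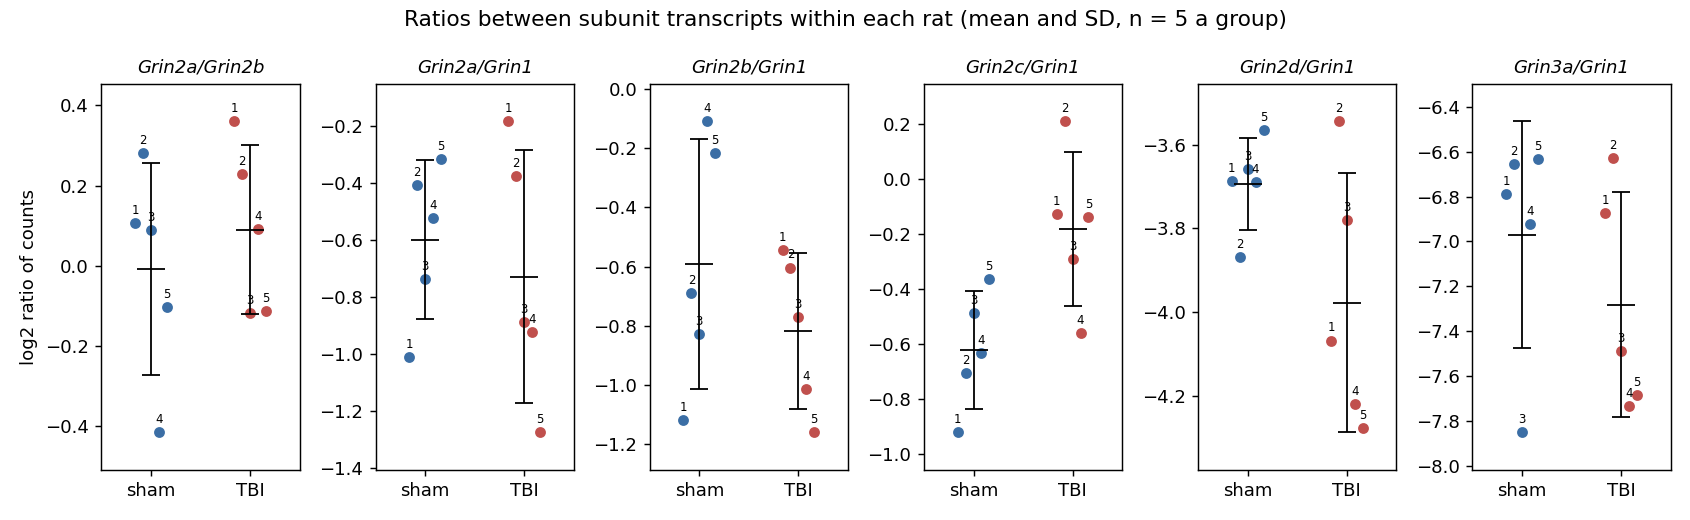
Log2 ratio of the raw counts of paired subunit transcripts within each rat, with sham and TBI side by side, numbered points for the rats and bars for the mean and SD (n = 5 a group). For Grin2c over Grin1, 4 of 5 TBI rats lie above the highest sham rat, and for Grin3a over Grin1 sham 3 lies below all other rats.

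As a description of the same counts, the reads on the Grin2a, Grin2b, Grin2c and Grin2d rows were summed in each rat. Grin2c took 33.8%, 29.8%, 36.5%, 27.5% and 30.8% of them in sham rats 1 to 5. It took 36.0%, 43.3%, 40.6%, 38.6% and 49.9% in TBI rats 1 to 5. TBI 1 lay just below the highest sham rat, sham 3, and the other 4 TBI rats lay above it. The mean share of Grin2c was 31.7 ± 3.51% in sham and 41.7 ± 5.32% in TBI, while that of Grin2b was 32.4 ± 4.48% and 26.7 ± 2.05% (SD, n = 5 each). The sham mean of Grin2b rested on sham 4 and 5, at 39.5% and 34.1%, since the other sham rats lay between 28.8% and 30.2%. Grin2a went from a mean share of 32.1% to 28.6% and Grin2d from 3.80% to 3.01%. Longer transcripts give more reads, so these are shares of reads and not of molecules.

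The receptor works within a larger set of proteins, for which 4 lists were kept. They cover the supply of the co-agonists glycine and D-serine, the scaffold and accessory proteins that hold the receptor at the synapse, the kinases and phosphatases that act on it, and the enzymes that respond to its calcium. Of 43 listed genes, 38 were tested, and 0 had an unadjusted p under 0.05 in either direction in edgeR, against the 7.89% of all rows given above. Their median log2 change was -0.036, beside -0.0080 over all rows tested, with 17 of the 38 above 0. The range was -0.78 to 0.19, and the median SE was 0.0917, so most of these genes were measured more finely than Grin2d or Grin3a.

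Within the co-agonist list, 7 of 9 genes were tested, and the widest log2 change was that of Slc6a5, a glycine transporter of glycinergic terminals, at -0.78 (SE 0.380, adjusted p = 0.637). Slc6a5 had 3 to 21 counts per library, with mean levels of 0.440 CPM in sham and 0.263 CPM in TBI. Among 9 scaffold and accessory genes tested, Dlg2, which encodes the scaffold PSD-93, differed most, at a log2 change of -0.16 (SE 0.102, adjusted p = 0.733). Of 7 kinases and phosphatases tested, it was Csnk2a1, a catalytic subunit of casein kinase 2, at -0.11 (SE 0.0699, adjusted p = 0.743). Of 15 signalling genes tested, it was Tiam1, an activator of the GTPase Rac, at -0.31 (SE 0.297, adjusted p = 0.855). The groups overlapped for each of these 4 genes.

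**Figure D5:**
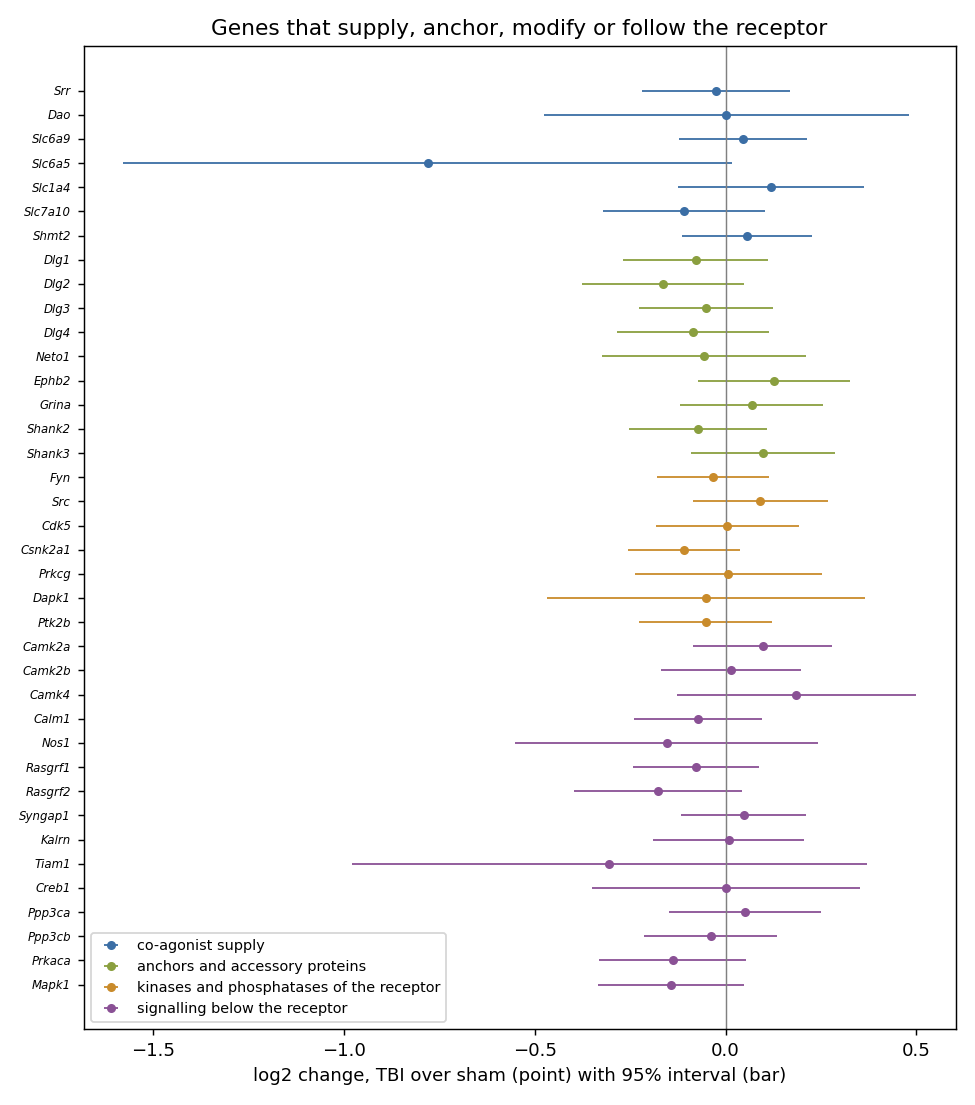
Log2 change, TBI over sham, of the 38 tested genes of the 4 receptor lists (points, coloured by list) with 95% confidence intervals (bars). The points scatter around 0 from -0.78 (Slc6a5) to 0.19 (Camk4), with a median of -0.036, and all 38 intervals hold 0.

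The subunits did not move as 1 unit across rats. Over the 10 rats, the Pearson correlation of log2 CPM between subunit genes was highest for Grin2a with Grin2b, at 0.655, and lowest for Grin1 with Grin2a, at -0.398. The points share library, scaling and group, so these values are descriptions. Grin2c had correlations between -0.23 and 0.10 with the other 5.

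The genes whose pattern over the 10 rats was most like that of each subunit were found among 10713 symbols with a mean of at least 1 CPM. Chpf2, Clstn1 and Camk2n2 were most like Grin1, with correlations of 0.966, 0.963 and 0.960. For Grin2a they were Klhl11, Phc3 and Cacna1e, with 0.947, 0.941 and 0.939. The genes most like Grin2b were Crebbp, Mettl15 and Rpph1, with 0.928, 0.927 and 0.922. Rpph1 stood at 509 CPM in sham 4 and 284 CPM in sham 5, against 18.7 to 56.5 CPM in the other 8 rats, the same libraries that were highest for Grin2b.

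For Grin2c the most similar genes were Fzd2, a Wnt receptor, at a correlation of 0.925, Kcne5, a potassium channel subunit, at 0.913, and Fjx1 at 0.912. All 3 were higher in TBI at an unadjusted p under 0.05, with log2 changes of 0.35, 0.70 and 0.23, against 4.89% of all rows. They were picked with the group difference included, so genes like Grin2c were likely to share its direction, and that is no separate result. After removal of the group means their correlations with Grin2c were 0.872, 0.807 and 0.862. Grin2d was most like Atp9b, Mlst8 and Lhfpl4, at 0.899, 0.890 and 0.878. Grin3a was most like Slc8a1, Castor2 and Pprc1, at 0.935, 0.928 and 0.920, from the lowest counts of the 6 subunits.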

How the data were processed

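Poly-A RNA of 10 rats was sequenced as described above. The authors deposited whole-number read counts, unscaled, with 1 column per rat and 1 row per RefSeq record. The submitters' processing notes name BWA and the rn4 assembly. The methods of the study name an Ensembl annotation, which was not reconciled with the RefSeq rows here, and strand handling is not given in the sources used here. An empty entry (0% of reads) and unmapped reads (12.8% to 26.1%) were left out. Symbols came from RefSeq genes of the GRCr8 assembly, used for names only, and matched 54.2% of 32041 rows. No protein sequences or transcript lengths were used here.

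Rows with a total of at least 44 counts, the 30th percentile, were tested (22431 rows) in edgeR 4.0.16 by its quasi-likelihood F test (TMM, robust) in R 4.3.3 and Benjamini-Hochberg adjustment, with 5 rats per group and no covariate. The labels give 5 sham rats, all used here, whereas the methods of the study give 3 controls for mRNA profiling of this model. Which 3 is not given in the sources used here, and the total of controls in its results is larger than its methods allow. Replicate numbers were given in accession order, and each rat was processed on its own. Library totals were 23425817 to 31671838 counts, of which the main Grin3a row held 10 to 31. Subunit ratios used raw counts and two-sided exact permutation tests over 252 splits. The likeness between genes was Pearson's r of log2 CPM (prior count 2). No library was a copy of another, since chi-square per degree of freedom was at least 8.49 in the 45 pairs. The fit was tested on simulated data.

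Named genes were the 6 subunits, pathway genes with an unadjusted p under 0.05, the gene with the largest absolute log2 change in each pathway list, the 3 symbols most like each subunit, and markers of lists that moved beside a subunit. The members and lists were chosen with earlier results of these data known. Alternatives were other size factors, filters and row sums, edgeR's exact test and likelihood ratio test, the fit without robust estimation, DESeq2 1.42.0, limma 3.58.1 (voom with sample weights), covariates for ribosomal RNA share and 1 surrogate variable (sva 3.50.0), and fits without given rats.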

Additional observations from a re-analysis of the deposited data

Results flagged for a closer look

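The log2 ratio of Grin3a to Grin1 in sham 3 was -7.85, while the other 4 sham rats lay between -6.92 and -6.63. The gap to the nearest sham rat was 0.764 of the range of the group, above the critical value of 0.710 of Dixon's test for 5 samples. In all, 26 groups of values were checked, for which chance gives 1.3 such gaps, and this was the 1 found. Grin3a had the fewest counts of the 6 subunits in these libraries, and in sham 3 its level was 0.390 CPM.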

How the results depend on the processing

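The 6 subunits gave 0 calls at an adjusted p of 0.05 in all 26 alternatives, and Grin2c kept its direction and an unadjusted p under 0.05 in all 26. At that unadjusted threshold, 1 subunit was called, and 1 to 3 when each rat was left out, with 3 without sham 2 and 2 without sham 1, TBI 2 or TBI 3. Grin2b and Grin2d were the genes added. Over all rows, 1769 had an unadjusted p under 0.05 (1097 higher, 672 lower), against 3788 with total counts (3762 higher, 26 lower), 992 with the ribosomal RNA covariate (549 higher, 443 lower), 1340 with a surrogate variable (643 higher, 697 lower), 2589 without sham 3 and TBI 3, and 1162 to 2566 when each rat was left out, lowest without sham 2. Rows past the adjusted threshold numbered 0, against 92 with total counts, 3 with DESeq2, 1 with a surrogate variable, 320 without sham 3 and TBI 3, and 0 to 12 when each rat was left out. Since sham 3 and TBI 3 were picked for marker levels near the other group, leaving both out can by itself raise such counts. Pathway genes with an unadjusted p under 0.05 numbered 0, against 1 with total counts, 3 with the ribosomal RNA covariate, and 0 to 2 when each rat was left out, with 2 without sham 1 or sham 5 and 1 without sham 3, TBI 1, TBI 2 or TBI 5.

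With total counts, which moved the median of all rows to 0.50, the log2 changes of Grin1, Grin2a, Grin2b, Grin2d and Grin3a were above 0, at 0.47, 0.41, 0.35, 0.22 and 0.20, each below that median. Grin1 was also above 0 with voom (0.053), and ran from -0.079 to 0.050 when each rat was left out, above 0 without sham 1 or TBI 1. With the ribosomal RNA covariate Grin2a was at 0.035 and Grin2b at 0.11, and without sham 4 and 5 Grin2b was at 0.013. Of the log2 ratios, Grin2a to Grin2b was -0.069 and Grin2b to Grin1 was 0.060 without sham 4 and 5. When each rat was left out, Grin2a to Grin2b ran from -0.0038 to 0.17, Grin2a to Grin1 from -0.27 to 0.0073 (above 0 without TBI 5), Grin2d to Grin1 from -0.39 to -0.21 (exact permutation p = 0.0317 without TBI 2) and Grin2c to Grin1 from 0.34 to 0.54. The Grin2c to Grin1 ratio was past p = 0.05 in 4 of these 10 fits and not in the other 6, and it was 0.52 without sham 4 and 5 (exact permutation p = 0.0714) and 0.50 without sham 3 and TBI 3 (exact permutation p = 0.0571), with fewer rats in each. The cause of the other changes was not tested. No paired analysis was possible because the replicate numbers only follow the order of the samples.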

Other observations

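Grin3b, which encodes the other GluN3 subunit and is known mainly from motor neurons, is not among the 6 subunits above and was named after its values were seen. It held 71 to 172 counts per library. Its level was 4.43 ± 0.824 CPM in sham and 4.10 ± 0.625 CPM in TBI (SD, n = 5 each), a log2 change of -0.10 with an SE of 0.145 (adjusted p = 0.901, edgeR).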
